A study of Mus musculus with 18 samples.

Results

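The transcripts of the forebrain were compared between Fmr1CRE and wild-type mice at postnatal day 25 (P25). Of the 18 mRNA libraries sequenced from forebrain, midbrain and hindbrain, the 6 forebrain libraries were used, 3 Fmr1CRE and 3 wild-type. They were chosen by the mouse and region in the name of each set of estimated reads, and not by the sample record it was attached to, because most sets sit on the record of another library. Each set lists 136288 transcripts, of which 51044 passed edgeR's default filter on low counts and were tested. Fmr1CRE mice carry a single-base variant, first found in a cis-regulatory element (CRE) of human FMR1, at the orthologous mouse position. The variant was introduced with CRISPR/Cas9, and founders were crossed with C57BL/6 to give stable lines. Which of the lines gave these mice is not given in the sources used here. The mice were described as male, so that the mutants carry the X-linked variant in the hemizygous state, and mutants and controls came from 1 litter, with no treatment. The whole dissected region was used, so that a change in the number of cells of a type and a change in RNA per cell cannot be told apart.

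Fmr1 encodes FMRP, an RNA-binding protein that travels with mRNA into dendrites and restrains the translation of many synaptic proteins. Loss of its expression causes fragile X syndrome. The gene is spliced into several isoforms that differ in alternative exons and acceptor sites, and its autosomal paralogs Fxr1 and Fxr2 are spliced in a similar manner. A gene can also shift between isoforms without a change in its total output, a change that a count per gene does not show.

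Poly(A) RNA was read as single 50-base reads, and 24154648 to 27927435 reads per forebrain library were assigned to annotated transcripts. When a read fits several isoforms, the salmon program divides it among them by an estimate, and the value of a transcript then rests on the few reads that tell the isoforms apart. Forebrain marker genes summed to 524 to 791 CPM (counts scaled to a common library size) in the 6 libraries, against 232 to 408 in midbrain and 61.7 to 104 in hindbrain. Of the 6 hindbrain markers 2 were at 0 in all forebrain libraries. Genes that differed by over 2 in log2(CPM + 0.5) between the Fmr1CRE and the wild-type mouse of replicate 3 in both midbrain and hindbrain numbered 12. In forebrain 8 of them differed by over 1 in the opposite direction and 1 in the same direction. For replicates 1 and 2 the same check gave 1 of 7 and 3 of 8 in the opposite direction. The labels of the replicate 3 forebrain libraries are therefore in doubt, and log2 fold changes and calls without both of these libraries, with 2 mice per genotype, are given beside the results that follow. An exchange of those forebrain libraries and one of the other regions of the same mice cannot be told apart.

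The Fmr1 isoforms that carried most reads differ by few stretches. The coding ones are shown here because the level estimates rest in part on reads that cross them. Fmr1-206 (ENSMUST00000114657, chrX:68678811-68717963, plus strand of GRCm38, GENCODE release M21) has 16 exons. Fmr1-202 (ENSMUST00000114653) has 17, because it includes the alternative exon 12 of 63 bases at chrX:68705861-68705923. Fmr1-206 in turn includes 75 coding bases at chrX:68712231-68712305 of its exon 14 that Fmr1-202 skips, and 6 coding bases at chrX:68703663-68703668 of its exon 10 that Fmr1-205 lacks. Capitals mark the stretch that is present in 1 isoform, with 20 bases of the transcript on each side in lower case.
Fmr1-202, exon 12, absent from Fmr1-206: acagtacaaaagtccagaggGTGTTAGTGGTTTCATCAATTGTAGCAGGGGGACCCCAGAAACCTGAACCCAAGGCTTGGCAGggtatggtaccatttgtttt
Fmr1-206, in exon 14, absent from Fmr1-202: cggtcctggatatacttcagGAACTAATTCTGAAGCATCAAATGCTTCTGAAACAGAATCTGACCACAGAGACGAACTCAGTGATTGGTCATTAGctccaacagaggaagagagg
Fmr1-206, in exon 10, absent from Fmr1-205: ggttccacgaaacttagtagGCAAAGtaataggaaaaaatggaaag

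Of all 50-base stretches of Fmr1-206, 4.35% are absent from Fmr1-202, and of those of Fmr1-202, 3.92% are absent from Fmr1-206. No 50-base stretch of either isoform is unique among all annotated transcripts, since each is shared with at least one further Fmr1 isoform. The levels of the isoforms are for this reason estimates from read combinations.

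Fmr1-206 received the most reads of the Fmr1 transcripts in every forebrain library, without a correction for length, and showed similar levels in both genotypes. It received 1128, 1326 and 1037 reads in Fmr1CRE replicates 1, 2 and 3, and 1109, 1165 and 1130 reads in the wild-type mice. The Fmr1CRE mice held both the highest and the lowest value, so the groups overlapped. The mean level was 46.0 ± 5.24 CPM (SD, n = 3) in Fmr1CRE and 44.8 ± 2.33 CPM (SD, n = 3) in wild-type forebrain. The log2 fold change was 0.04 (standard error, SE, 0.11; edgeR's quasi-likelihood test, unadjusted p = 0.732, adjusted p = 0.979; exact permutation test, p = 0.8), and 0.04 without both replicate 3 libraries. Its share of the reads of Fmr1 was 62.1% ± 6.35 (SD, n = 3) in mutants and 57.3% ± 1.60 (SD, n = 3) in controls (exact permutation test, p = 0.3).

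Fmr1-202, the isoform with exon 12, received 485, 459 and 450 reads in the Fmr1CRE mice and 550, 635 and 472 in the wild-type mice. The mean level was 18.4 ± 0.380 CPM (SD, n = 3) in Fmr1CRE and 21.9 ± 3.76 CPM (SD, n = 3) in wild-type forebrain. The Fmr1CRE mice lay close together, above wild-type replicate 3 and below the other wild-type mice (log2 fold change -0.25, SE 0.15, unadjusted p = 0.153, adjusted p = 0.972 from edgeR; exact permutation test, p = 0.4). Without both replicate 3 libraries it was -0.39 (unadjusted p = 0.0360, adjusted p = 0.423). Its share of the reads of Fmr1 was 24.9% ± 1.26 (SD, n = 3) in mutants and 27.8% ± 2.94 (SD, n = 3) in controls (exact permutation test, p = 0.2).

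Fmr1-205, which lacks the 6 bases of exon 10 and has 187 further bases at its 5′ end, varied most. Which of these differences its estimated reads rest on was not tested. It received 73, 0 and 266 reads in the Fmr1CRE mice and 216, 130 and 238 in the wild-type mice. The highest and the lowest of these values were both in Fmr1CRE mice (log2 fold change -0.75, SE 1.42, unadjusted p = 0.615, adjusted p = 0.972 from edgeR; exact permutation test, p = 0.4). The log2 fold change was -2.33 without both replicate 3 libraries (SE 1.90, unadjusted p = 0.289, adjusted p = 0.681 from edgeR). Fmr1-201 and Fmr1-204, further coding isoforms, received 0 reads in all 6 libraries, which allows up to 3 reads per library by counting error alone. Fmr1-203 received 19, 0 and 12 reads in the Fmr1CRE mice and 0 in each wild-type mouse, and did not pass the filter.

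The 3 retained-intron transcripts of Fmr1 that follow, which keep intron sequence and are not annotated as coding, completed the 6 Fmr1 transcripts that were tested out of 13 annotated. Fmr1-208 received 54, 45 and 27 reads in Fmr1CRE and 24, 43 and 30 in wild-type mice, Fmr1-212 received 30, 57 and 30 against 9, 53 and 38, and Fmr1-213 received 42, 27 and 12 against 19, 45 and 3. The groups overlapped for each of the 3, with log2 fold changes between 0.25 and 0.38 and an adjusted p of at least 0.972 from edgeR. They were 0.51, 0.46 and 0.06 without both replicate 3 libraries. In level, 0 of 6 Fmr1 transcripts were called at an adjusted p of 0.05, and 0 also with DESeq2. The edgeR test of shares described below did not call Fmr1 either (unadjusted p of the gene 0.809). A shift of Fmr1 between isoforms was thus not detected with 3 mice per genotype, and how large a shift would have been detected was not tested. The plot of Fmr1 transcripts shows these values by mouse.

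**Figure D1:**
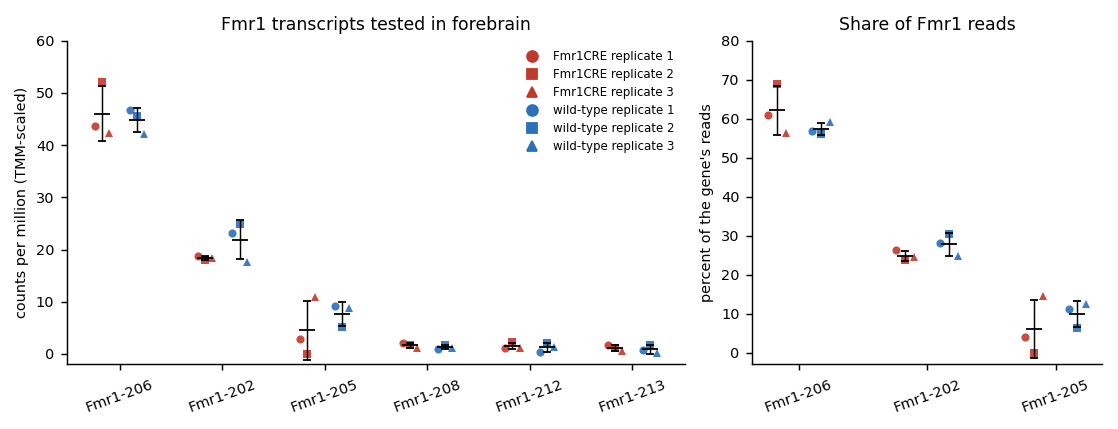
Fmr1 transcripts in forebrain. The left panel gives the level of each tested transcript in CPM and the right panel its percentage of the reads of Fmr1, with 1 symbol per mouse (red Fmr1CRE, blue wild-type) and bars for the mean ± SD (n = 3). Fmr1-206 lies near 45 CPM in both genotypes and the points of the genotypes overlap for each transcript.

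Summed over all its transcripts, Fmr1 received 1846, 1923 and 1839 reads in the Fmr1CRE mice and 1951, 2077 and 1911 in the wild-type mice. After scaling to library size the log2 fold change was -0.04 (SE 0.08, unadjusted p = 0.655, adjusted p = 0.916 from edgeR; exact permutation test, p = 0.9). The deposited gene table gave 1888, 1913 and 1739 in Fmr1CRE and 1831, 2069 and 1768 in wild-type mice, with a log2 fold change of -0.0033, and of -0.05 without both replicate 3 libraries. The direction of a change this small depended on the scaling, since with total counts alone the gene table gave 0.024.

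The paralogs were also without a call. Fxr1-208, the leading Fxr1 transcript (ENSMUST00000200392, chr3:34020108-34070322), received 720, 751 and 604 reads in Fmr1CRE and 593, 621 and 583 in wild-type mice. The Fmr1CRE reads were higher in replicates 1 and 2 and overlapped the wild-type reads in replicate 3 (log2 fold change 0.21, SE 0.11, unadjusted p = 0.118, adjusted p = 0.972 from edgeR; exact permutation test, p = 0.2), and the log2 fold change without both replicate 3 libraries was also 0.21. Other Fxr1 isoforms alternated between libraries within a genotype. Fxr1-202 received 310, 47 and 351 reads in Fmr1CRE and 317, 0 and 120 in wild-type mice. Fxr1-206 received 0, 229 and 200 in Fmr1CRE and 203, 333 and 249 in wild-type mice. These 2 isoforms varied more between mice of 1 genotype than between the genotype means. Their log2 fold changes were 0.66 and -0.85, and 0.05 and -1.27 without both replicate 3 libraries. Fxr2-201 (ENSMUST00000018909, chr11:69632990-69653297) carried 76.8% ± 2.36 (SD, n = 3) of the Fxr2 reads in Fmr1CRE and 77.1% ± 1.83 (SD, n = 3) in wild-type mice. Its reads, 1658, 1835 and 1749 against 1807, 1643 and 1778, overlapped between the genotypes (log2 fold change 0.01, SE 0.10, unadjusted p = 0.946 from edgeR; without both replicate 3 libraries -0.05). Of the 18 family transcripts tested, 0 were called, 0 were without overlap between the genotypes in CPM, and 5 were at 0 in at least 1 library while holding 20 or more reads in another.

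Over all transcripts, edgeR called 0 of 51044 (0.0%) at an adjusted p of 0.05. The lowest adjusted p was 0.304, and an unadjusted p under 0.05 was found for 1576 transcripts (3.09%). Without both replicate 3 libraries the adjusted count was again 0, with 5804 below an unadjusted p of 0.05. Without Fmr1CRE replicate 3 alone 6772 were below it, against 1346 to 1509 without any other single library. DESeq2 called 221 of the same transcripts (0.433%), 78 higher and 143 lower in Fmr1CRE mice. In 4.75% of the tested transcripts every Fmr1CRE library lay above every wild-type library, and in 5.5% below. The median log2 fold change was 0.0062.

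The transcripts with the lowest p values were present in all libraries of 1 genotype and absent from all libraries of the other. Such all-or-none values were found for 156 of the 51044 tested transcripts, of 142 genes, 91 absent in Fmr1CRE and 65 absent in wild-type forebrain. They made up 152 of the 221 calls of DESeq2. Of the 156, 0 were divided between the genotypes in the same way in midbrain and 0 in hindbrain, while 2 were divided in the opposite way in each of these regions. The rate of such divisions over all transcripts of those regions is not given here. No conclusion about the 156 is drawn from these counts. A value of 0 in some libraries was frequent in general, as 7601 of the tested transcripts (14.9%) had 0 reads in at least 1 forebrain library and 20 or more in another. The all-or-none transcripts had little sequence of their own, with a median of 2.11% of their 50-base stretches found in no other transcript, against 14.4% over all transcripts tested. On reads summed per gene, their genes had a median absolute log2 fold change of 0.13, against 0.13 over all genes.

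None of the transcripts named next passed the threshold in level with edgeR, where each had an adjusted p of 0.304. All were called by DESeq2, with adjusted p from 6.25e-11 for Dctn1-201 to 2.38e-07 for Gsk3b-204. The adjusted p from edgeR was 0.284 to 0.286 without both replicate 3 libraries. Among those absent from wild-type forebrain, Ubtf-202, of a ribosomal RNA gene transcription factor, received 119, 127 and 70 reads in the Fmr1CRE mice, and Dctn1-201, of the largest dynactin subunit, received 117, 264 and 196. Spats2l-203 received 61, 61 and 66. Among those absent from Fmr1CRE forebrain, Mapk9-204, of the stress kinase JNK2, received 96, 160 and 144 reads in the wild-type mice, and Gsk3b-204, of a kinase of Wnt and insulin signalling, received 47, 67 and 65. Slmap-213 received 54, 62 and 57. When 0 is read as 3 reads in each library, the estimates of these 6 transcripts differed at least 19.2-fold. This reading covers counting error only and not the division of shared reads among isoforms. Relb-203, of a subunit of NF-kappa-B, received 68, 63 and 74 reads in the wild-type mice, and Pcdha1-201, of a clustered protocadherin, 66, 92 and 79, each with 0 in Fmr1CRE mice. Only 38.4% of the 50-base stretches of Pcdha1-201 occur in no other gene, so that reads may also be divided between genes. The shares of Relb-203 and Pcdha1-201 were also called, as were those of the remaining ones in this group, described next.

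The share of each transcript within its gene was tested in 9005 genes with edgeR's diffSpliceDGE and a Simes p per gene, for transcripts that held at least 5% of their gene's reads. In 24 genes (0.267%) the shares differed at an adjusted p of 0.05, and 68 were below an unadjusted p of 0.05. The 24 genes held 29 transcripts with a changed share. All 29 were all-or-none, 15 absent in Fmr1CRE and 14 absent in wild-type forebrain. Without both replicate 3 libraries 127 genes were called, among them 16 of the 24, and 8 genes were called in every fit that left out 1 library. The count depended on the method as well. It was 5 with the replicate number as a block, of which 4 were among the 24, 10 in 1 fit of all 18 libraries, and 0 with limma, which gave 690 genes with an unadjusted p under 0.05 that included 20 of the 24. Restricted to the transcripts with at least 20% of their 50-base stretches unique, a choice made after seeing the data, 0 of 1980 genes were called with edgeR and 21 were below an unadjusted p of 0.05. None of the 24 genes was among these 1980, so that this restriction does not test them. The 29 transcripts had a median of 0.753% of unique stretches and at most 7.54%, against 7.28% over the transcripts tested for shares.

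Part of the distinguishing sequence of the leading pairs is shown because such sequence limits which reads could tell the isoforms apart. Differences at the transcript ends are not shown, among them 41 bases at the 3′ end of Cnot4-201 and 37 at the 5′ end of Rpap1-201. Sh2b2-201 and Sh2b2-203 are divided by 4 bases in the 5′ untranslated region (chr5:136244629-136244632, minus strand) and by their ends. Pms2-209 has 5 coding bases (chr5:143911921-143911925, plus strand) that Pms2-213 lacks. Cnot4-201 has 9 coding bases in exon 7 (chr6:35064889-35064897, minus strand) that are absent from Cnot4-207. Rpap1-201, the isoform with which Rpap1-205 is compared, has 158 adjoining coding bases that are absent from Rpap1-205, the whole of exon 5 (chr2:119780056-119780176, minus strand) and 37 bases of exon 6 (chr2:119778302-119778338). Capitals mark the bases that the other isoform lacks.
Sh2b2-201, absent from Sh2b2-203: aagctgcgcgcctGTAGcccgacgctgcca
Pms2-209, absent from Pms2-213: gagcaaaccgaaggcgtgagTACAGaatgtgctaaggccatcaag
Cnot4-201, absent from Cnot4-207: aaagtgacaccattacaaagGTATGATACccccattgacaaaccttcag
Rpap1-201, absent from Rpap1-205: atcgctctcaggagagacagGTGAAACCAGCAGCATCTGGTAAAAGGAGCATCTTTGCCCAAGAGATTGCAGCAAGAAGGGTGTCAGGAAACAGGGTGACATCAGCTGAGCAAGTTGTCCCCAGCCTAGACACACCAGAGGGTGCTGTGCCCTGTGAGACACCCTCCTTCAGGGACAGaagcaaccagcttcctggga

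Sh2b2 encodes an adaptor protein of receptor tyrosine kinases, among them the insulin receptor. Sh2b2-201 received 105, 113 and 89 reads in the Fmr1CRE mice and 0 in each wild-type mouse. Sh2b2-203 received 0 in each Fmr1CRE mouse and 77, 70 and 107 in the wild-type mice. The isoforms thus took opposite genotypes, with shares of 81.4% ± 3.83 (SD, n = 3) and 73.4% ± 5.59 (SD, n = 3) of the gene (adjusted p of the gene 3.45e-05 from edgeR). Added together, the pair received 105, 113 and 89 reads against 77, 70 and 107, which overlapped (exact permutation test on CPM, p = 0.2). Only 3.64% of the 50-base stretches of Sh2b2-201 are absent from Sh2b2-203.

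Pms2, a DNA mismatch repair gene, showed the same arrangement. Pms2-209 received 141, 143 and 183 reads in Fmr1CRE and 0 in wild-type mice, and Pms2-213 received 0 in Fmr1CRE and 139, 171 and 161 in wild-type mice. When 0 is read as 3 reads, the estimates of each isoform were at least 52.0-fold apart between the genotypes (adjusted p of the gene 0.000144 from edgeR). This reading covers counting error only and not the division of shared reads between the isoforms. The sums were 6.19 ± 1.14 CPM (SD, n = 3) in Fmr1CRE and 6.17 ± 0.447 CPM (SD, n = 3) in wild-type mice (exact permutation test, p = 1). The pair is told apart by 52 stretches of Pms2-209, 0.957% of the transcript.

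Of the 24 called genes, 7 held such an opposed pair. Arhgap11a, which encodes a GTPase-activating protein of dividing cells, had Arhgap11a-201 at 54, 47 and 47 reads in Fmr1CRE and 0 in wild-type mice, and Arhgap11a-203 at 0 in Fmr1CRE and 63, 48 and 84 in wild-type mice. Zfp217, a zinc-finger transcriptional regulator, had Zfp217-202 at 71, 113 and 90 in Fmr1CRE and Zfp217-201 at 118, 82 and 163 in wild-type mice, with 0 in the other genotype. The sums of these pairs overlapped between the genotypes, as did those of Pcdha1 and Itga10. Sema3b, a secreted axon guidance protein, differed in this respect. The sum of Sema3b-202 and Sema3b-204 was 28, 28 and 24 reads in Fmr1CRE and 43, 63 and 79 in wild-type mice, lower in each Fmr1CRE mouse (exact permutation test on CPM, p = 0.1, the smallest p that 3 against 3 allows). In 6 of the 7 genes the sums overlapped, as the plot of transcript pairs shows for 4 of them.

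**Figure D2:**
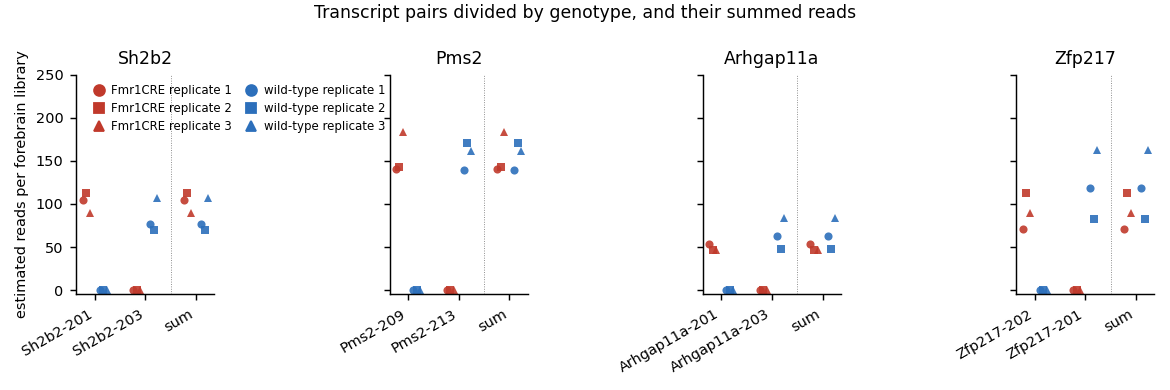
Opposed transcript pairs in forebrain. For 4 genes the estimated reads per library are given for each isoform of the pair and for their sum, with 1 symbol per mouse (red Fmr1CRE, blue wild-type). Each isoform is at 0 in 1 genotype, while the sums of the genotypes overlap.

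The other called genes held no such opposed pair among the transcripts tested. Rpap1, which encodes an RNA polymerase II-associated protein, gave the lowest p (adjusted p of the gene 3.18e-06). Its transcript Rpap1-205, annotated as a target of nonsense-mediated decay, received 0 reads in each Fmr1CRE mouse and 282, 289 and 358 in the wild-type mice, 60.9% ± 2.83 (SD, n = 3) of the gene's reads. Rpap1-201 received 0, 324 and 310 reads in Fmr1CRE mice, 56.7% and 64.4% of the gene in the mice that held it, and 0 in each wild-type mouse, and did not pass the filter. Rpap1-203 received 160, 81 and 83 reads in Fmr1CRE and 83, 78 and 70 in wild-type mice and overlapped. Sorbs2-215, of an adaptor protein of the actin cytoskeleton, received 0 in each Fmr1CRE mouse and 759, 427 and 255 in the wild-type mice (adjusted p of the gene 5.37e-06). Sorbs2-204 received 1323, 1834 and 1674 in Fmr1CRE and 1113, 1491 and 1509 in wild-type mice, which overlapped.

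Further genes called by share lay between adjusted p of 0.000144 and 0.0476. Cdk10-201, of a cyclin-dependent kinase, received 176, 147 and 228 reads in Fmr1CRE and 0 in wild-type mice, while Cdk10-212 received 883, 777 and 636 against 761, 787 and 717. Lrsam1-202, of an E3 ubiquitin ligase, received 60, 77 and 48 in Fmr1CRE and 0 in wild-type mice. Pla2g15-204, of a lysosomal phospholipase, received 0 in Fmr1CRE and 79, 63 and 129 in wild-type mice. In each of these genes the transcript that held most reads was present in both genotypes. Nudt13-207, of a nudix hydrolase, received 41, 75 and 37 in Fmr1CRE and 0 in wild-type mice. Cnot4-207, of a subunit of the deadenylase complex CCR4-NOT, received 0 in Fmr1CRE and 112, 149 and 161 in wild-type mice, and Cnot4-201 received 239, 259 and 294 against 135, 163 and 93. Both Cnot4 isoforms were without overlap, in opposite directions. Cdk10, Cnot4 and Pcdha1 were not called without both replicate 3 libraries (adjusted p = 1, 0.383 and 0.0540 from edgeR). The other genes named for a changed share were, with adjusted p up to 0.0418 for Itga10.

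Of the 29 transcripts, 0 were divided in midbrain as in forebrain and 0 in hindbrain. Without the rate over all transcripts of those regions, no conclusion about the 29 is drawn from these counts. In the 12 libraries of these regions 26 were at 0 in at least 1 library of each genotype and 1 in libraries of 1 genotype. Nudt13-207 and Gm20498-206 held reads in all 12. Sh2b2-201 was divided the opposite way in midbrain, with 0 in each Fmr1CRE mouse and 134, 120 and 27 reads in the wild-type mice. The heat map of the 29 transcripts shows this for the 18 libraries.

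**Figure D3:**
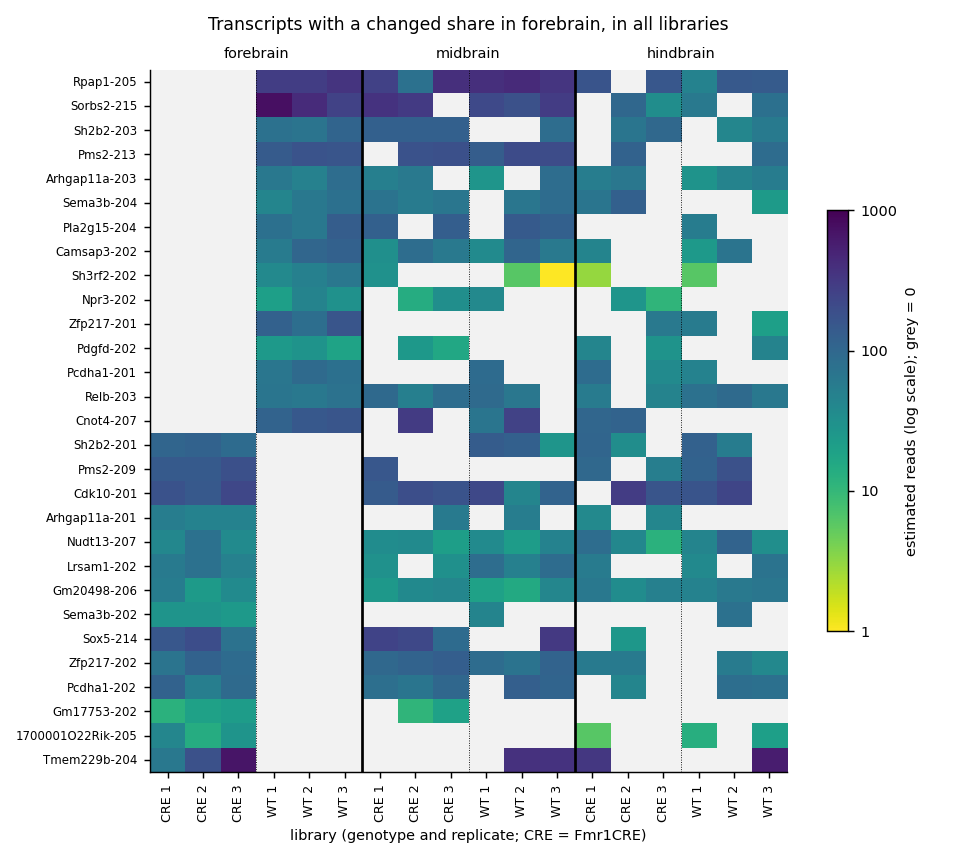
The 29 transcripts with a changed share in forebrain, in all 18 libraries. Each cell gives the estimated reads on a log scale, grey for 0, with forebrain, midbrain and hindbrain libraries from left to right and Fmr1CRE before wild-type in each. Of the 29, 0 are divided in midbrain as in forebrain and 0 in hindbrain, and 26 are at 0 in libraries of both genotypes there. The rate over all transcripts of those regions is not given, so that no conclusion is drawn from these counts.

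At the level of the gene, 0 of 18467 genes were called by edgeR on the deposited gene table (0.0%), with 1002 at an unadjusted p under 0.05 and 31 called by DESeq2. On the reads summed per gene, an alternative added after seeing the data, 0 of 18408 were called and 923 were below an unadjusted p of 0.05. Of the 24 genes with changed shares, 3 had an unadjusted p under 0.05 in the gene table and 1 on summed reads, and the highest absolute log2 fold change on summed reads was 0.64, for Itga10. The deposited gene table is not the sum of the reads. It differed from that sum by 4.10% to 5.73% per library, and by 0.105% to 0.179% from transcript abundances scaled by length, a scale on which a gene's value moves with the length of the isoforms it is assigned to.

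The choice of scale changed the values of some genes, among them genes with a changed share. The part of the divided isoforms in this was not tested. Rpap1-201 and Rpap1-205 have 4744 and 4546 bases, and Sh2b2-201 and Sh2b2-203 have 2848 and 2797. Rpap1 was at 381, 455 and 399 in Fmr1CRE and at 775, 600 and 759 in wild-type mice in the gene table (log2 fold change -0.76, unadjusted p = 0.00135 from edgeR; without both replicate 3 libraries -0.74, unadjusted p = 0.0157). Its summed reads were 488, 571 and 482 against 468, 451 and 611 (log2 fold change 0.06, unadjusted p = 0.652). The gene table put every Fmr1CRE value below every wild-type value, and the summed reads overlapped. Sh2b2 was at 108, 98 and 391 in Fmr1CRE and 88, 82 and 421 in wild-type mice in the gene table, high in both replicate 3 libraries, and at 136, 133 and 109 against 108, 101 and 134 as summed reads. Over the 18341 genes tested on both scales, 469 differed by over 0.5 in log2 fold change. Of 991 with an unadjusted p under 0.05 in the gene table, 505 also had one on summed reads. The widest gap was that of Olfr1178, an olfactory receptor, with 4.90 in the gene table and 0.05 on summed reads. Wnt16 had -2.84 and 0.42, and Lgals3, of the lectin galectin-3, -2.72 and 0.10. These 3 genes were chosen after their values were seen.

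In lists of genes related to FMRP and to splicing edgeR called 0 transcripts and 0 shares, also in level without both replicate 3 libraries. DESeq2 called 1 transcript of the neuronal genes, Ntrk2-204, and 3 of the splicing regulators, Clk4-203, Rbfox2-202 and Celf1-214. Over all transcripts tested 4.75% were higher and 5.5% lower without overlap, and 3.09% had an unadjusted p under 0.05. Of 139 tested transcripts of 26 FMRP-linked synaptic genes, 5 were higher (3.597%) and 7 lower (5.04%) without overlap and 4 (2.88%) had an unadjusted p under 0.05, with a median log2 fold change of -0.10 against 0.0062 over all transcripts. Nlgn3-201, of the postsynaptic adhesion protein neuroligin 3 (chrX:101299210-101325963), received 830, 1018 and 1099 reads in Fmr1CRE and 1265, 1476 and 2244 in wild-type mice. Each Fmr1CRE value was below each wild-type value (log2 fold change -0.74, SE 0.21, unadjusted p = 0.0140, adjusted p = 0.972 from edgeR; without both replicate 3 libraries -0.63, unadjusted p = 0.0154). Dlg4-201, of the scaffold protein PSD-95, received 1105, 1668 and 1831 in Fmr1CRE and 3335, 1948 and 2982 in wild-type mice. The groups did not overlap, and wild-type replicate 1 was highest (log2 fold change -0.84, SE 0.29, unadjusted p = 0.0279, adjusted p = 0.972; without both replicate 3 libraries -1.01, unadjusted p = 0.0671). No 50-base stretch of Nlgn3-201 or Dlg4-201 is unique to the transcript. Of the stretches of Nlgn3-201, 55.8% occur in no other gene, against 100% for Dlg4-201. On reads summed per gene the log2 fold change was -0.14 for Nlgn3 (edgeR, unadjusted p = 0.2205) and -0.19 for Dlg4 (edgeR, unadjusted p = 0.291). In midbrain Dlg4-201 had a log2 fold change of -0.23 and in hindbrain -0.04. Gabbr1-205, a transcript of the GABA-B receptor subunit 1 annotated for nonsense-mediated decay, was at 6.33 ± 2.02 CPM (SD, n = 3) in Fmr1CRE and 3.52 ± 0.905 CPM (SD, n = 3) in wild-type mice (log2 fold change 0.85, unadjusted p = 0.0420, adjusted p = 0.972 from edgeR; exact permutation test, p = 0.1; without both replicate 3 libraries 0.83, unadjusted p = 0.0655).

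Of 377 tested transcripts of 44 neuronal genes known for alternative isoforms, 10 were higher (2.65%) and 27 lower (7.16%) without overlap, and 13 (3.45%) had an unadjusted p under 0.05. The median log2 fold change was -0.05, and -0.12 without both replicate 3 libraries. Ntrk2 encodes TrkB, the receptor of the neurotrophin BDNF. Ntrk2-204 (ENSMUST00000224259, chr13:58806639-58933120) lacks the exons of Ntrk2-201 that encode the kinase domain, as truncated TrkB does. Ntrk2-202, whose level is not given here, also has 1428 coding bases and differs from Ntrk2-204 only in non-coding sequence. The values of Ntrk2-204 are thus not those of truncated TrkB as a whole. Ntrk2-204 received 292, 634 and 775 reads in Fmr1CRE and 1331, 1612 and 1801 in wild-type mice. All Fmr1CRE values were lower, and replicate 1 was lowest (log2 fold change -1.46, SE 0.36, unadjusted p = 0.00703, adjusted p = 0.972 from edgeR; DESeq2, adjusted p = 0.0268). Without both replicate 3 libraries it was -1.73 (edgeR, unadjusted p = 0.0174). Its share of Ntrk2 was 3.69% ± 0.895 (SD, n = 3) in mutants and 7.89% ± 0.569 (SD, n = 3) in controls, without overlap. The share was not called (edgeR, unadjusted p = 0.0135, adjusted p = 1). No 50-base stretch is unique to it. The log2 fold change was 0.02 in midbrain and 0.15 in hindbrain, and the difference between forebrain and the other regions had an unadjusted p of 0.00220 and an adjusted p of 0.740. Nfasc-203, of the axon initial segment protein neurofascin, was at 7.88 ± 3.596 CPM (SD, n = 3) in Fmr1CRE and 17.9 ± 2.62 CPM (SD, n = 3) in wild-type mice (log2 fold change -1.18, unadjusted p = 0.0140, adjusted p = 0.972; exact permutation test, p = 0.1; without both replicate 3 libraries -1.69, unadjusted p = 0.00367). Ptprd-206, of a presynaptic receptor tyrosine phosphatase, was at 39.3 ± 3.73 CPM (SD, n = 3) in Fmr1CRE and 29.9 ± 0.553 CPM (SD, n = 3) in wild-type mice (log2 fold change 0.40, unadjusted p = 0.00769, adjusted p = 0.972; exact permutation test, p = 0.1; without both replicate 3 libraries 0.47, unadjusted p = 0.0101). The log2 fold change of Ptprd-206 was -0.24 in midbrain (edgeR, unadjusted p = 0.0148) and -0.05 in hindbrain (edgeR, unadjusted p = 0.739).

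Of 419 tested transcripts of 58 splicing regulators, 28 were higher (6.68%) and 22 lower (5.25%) without overlap, 19 (4.53%) had an unadjusted p under 0.05, and the median log2 fold change was 0.13. Clk4-203, of a kinase of SR splicing factors, received 198, 221 and 180 reads in Fmr1CRE and 68, 121 and 101 in wild-type mice. All Fmr1CRE values were higher (log2 fold change 1.06, SE 0.24, unadjusted p = 0.00459, adjusted p = 0.972 from edgeR; DESeq2, adjusted p = 0.0378; edgeR without both replicate 3 libraries 1.09, unadjusted p = 0.0333). The log2 fold change of Clk4-203 was 0.39 in midbrain (edgeR, unadjusted p = 0.132) and -0.66 in hindbrain (edgeR, unadjusted p = 0.0674). Rbfox2-202, of a splicing factor of neuronal and muscle exons, received 37, 105 and 81 in Fmr1CRE and 0 in wild-type mice, and held at most 1.74% of its gene's reads. Celf1-214 received 0 in Fmr1CRE and 34, 14 and 35 in wild-type mice. These 2 were all-or-none (adjusted p = 0.494 and 0.660 from edgeR, 1.07e-06 and 0.00182 from DESeq2, and 0.317 and 0.335 from edgeR without both replicate 3 libraries). Of 39 tested transcripts of 12 genes that the study discusses, 2 were higher and 0 lower without overlap, and 0 had an unadjusted p under 0.05. They were Pax6-201, at 1.73 ± 0.295 CPM (SD, n = 3) in Fmr1CRE and 1.11 ± 0.245 CPM (SD, n = 3) in wild-type mice, and Hdx-202, at 3.403 ± 1.49 CPM (SD, n = 3) and 1.04 ± 0.901 CPM (SD, n = 3) (exact permutation test, p = 0.1 for each). Hdx-202 was separated by a narrow margin, 1.69 against 1.63 CPM at the nearest. Its reads, 105, 113 and 41 in Fmr1CRE and 0, 42 and 40 in wild-type mice, overlapped. Arhgef6-201 was at 3.25 ± 0.467 CPM (SD, n = 3) and 4.19 ± 0.828 CPM (SD, n = 3) and overlapped (exact permutation test, p = 0.2). The log2 fold changes of Pax6-201, Hdx-202 and Arhgef6-201 were 0.65, 1.69 and -0.36, and 0.91, 2.35 and -0.35 without both replicate 3 libraries (edgeR, adjusted p of at least 0.479 in that fit).

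Among the 221 transcripts called by DESeq2, 24 had at least 20% of their 50-base stretches to themselves, and 15 of these had reads in all 6 libraries. They were chosen after their values were seen. For these 15 the level rests at least in part on reads of their own. Of them 14 were lower and 1 higher in Fmr1CRE forebrain. None was called by edgeR, where the lowest adjusted p was 0.304 and the unadjusted p ran from 0.000181 to 0.00584. Of the 51044 transcripts tested, 22449 had at least 20% of their 50-base stretches to themselves. In an edgeR fit of these alone, a choice made after seeing the data, 0 were called and the lowest adjusted p was 0.709. The 15 were without overlap between the genotypes in the 6 libraries, so that leaving out both replicate 3 libraries could hardly change their direction. In that fit edgeR gave log2 fold changes of -1.59 to -0.33 for the 14 and 2.10 for the other. The unadjusted p in that edgeR fit ran from 0.00268 to 0.0433. In the same direction and without overlap, 0 of the 15 were divided in midbrain and 2 in hindbrain. The share without overlap over all transcripts of those regions is not given here.

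Cst3-201, of the secreted protease inhibitor cystatin C (chr2:148871722-148875576), received 19851, 19984 and 18892 reads in Fmr1CRE and 23256, 24412 and 27303 in wild-type mice. All Fmr1CRE values were lower, at 775 ± 8.24 CPM (SD, n = 3) against 984 ± 33.0 CPM (SD, n = 3) (DESeq2, log2 fold change -0.35, adjusted p = 3.89e-11; edgeR, unadjusted p = 0.00538, adjusted p = 0.972). Without both replicate 3 libraries the edgeR log2 fold change was -0.33 (unadjusted p = 0.0308). Etnppl-201, of the astrocytic enzyme that degrades phosphoethanolamine, received 578, 685 and 639 in Fmr1CRE and 1108, 1294 and 1178 in wild-type mice. Its values were separated by a wide gap (DESeq2, log2 fold change -0.91, adjusted p = 5.53e-09; edgeR, unadjusted p = 0.000181, adjusted p = 0.304; without both replicate 3 libraries -0.99, unadjusted p = 0.00268). In midbrain the edgeR log2 fold change of Etnppl-201 was -0.30 (unadjusted p = 0.167) and in hindbrain -0.31 (unadjusted p = 0.381). Prex2-201, of a Rac exchange factor, received 2115, 2851 and 2668 in Fmr1CRE and 3517, 4056 and 4362 in wild-type mice (DESeq2, log2 fold change -0.64, adjusted p = 0.00746; edgeR, unadjusted p = 0.00364), all Fmr1CRE values being lower. Utp14b-201 was lower as well, with 459, 551 and 403 against 773, 843 and 890 (DESeq2, log2 fold change -0.83, adjusted p = 5.80e-06).

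Of all genes tested from the gene table, 5.93% were higher and 4.21% lower in Fmr1CRE forebrain without overlap. Of 5 astrocyte marker genes 2 were lower without overlap, as was 1 of 4 endothelial genes, and 2 of 6 midbrain marker genes were higher. The midbrain genes summed to 3.25, 2.68 and 4.15 CPM in Fmr1CRE and 2.23, 3.07 and 1.79 CPM in wild-type forebrain, which overlapped. In the midbrain libraries they summed to 37.5 to 67.4 CPM. The astrocyte genes' summed level was 972, 1003 and 1154 CPM in Fmr1CRE and 1109, 1169 and 1333 CPM in wild-type mice. Hypothalamic neuropeptide genes summed to 4.48, 9.06 and 56.2 CPM against 75.0, 89.1 and 42.7 CPM, 1 of 7 without overlap and 0 of 7 at 0 in all libraries, lowest in Fmr1CRE replicates 1 and 2. Blood genes ran from 478 to 1610 CPM in Fmr1CRE and from 733 to 1186 CPM in wild-type mice. The part of these cell types in the differences above was not tested. None of the 15 transcripts belongs to a gene of the marker lists.

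Transcripts of 3 histone genes were among the 14 that were lower. Hist1h1c-201, of linker histone H1.2 (chr13:23738808-23740367), received 554, 732 and 901 reads in Fmr1CRE and 1299, 2128 and 1463 in wild-type mice. Hist1h1e-201, of linker histone H1.4, received 48, 78 and 63 in Fmr1CRE and 119, 167 and 158 in wild-type mice. Hist1h2be-203 received 69, 69 and 81 against 116, 184 and 203. The DESeq2 log2 fold changes of the 3 lay between -1.15 and -1.23, with adjusted p between 0.0158 and 0.0289, and all Fmr1CRE values were below the wild-type values. Hist1h1e-201 and Hist1h2be-203 overlap at chr13:23620629-23621078 on the same strand, so that reads of that stretch may be counted on either. In midbrain and hindbrain Hist1h1c-201 was lower in Fmr1CRE replicates 1 and 2 than in wild-type replicates 1 and 2, and higher in Fmr1CRE replicate 3, with 1382 and 1628 reads, than in wild-type replicate 3, with 985 and 1199. The forebrain libraries of replicate 3 ran the other way, with 901 against 1463.

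The other transcripts lower in Fmr1CRE forebrain were Pnrc2-201, Crot-201, Nbl1-201, Capn2-201, Hsd17b11-201, Ctso-201 and Kcnab2-213. Their DESeq2 log2 fold changes ran from -1.39 for Kcnab2-213, a potassium channel beta subunit transcript, to -0.34 for Pnrc2-201. H2-T23-202, a transcript of a non-classical class I histocompatibility gene, was the only one higher. It received 37, 31 and 31 reads in Fmr1CRE and 6, 9 and 9 in wild-type mice (DESeq2, log2 fold change 2.05, adjusted p = 0.0366; edgeR, unadjusted p = 0.00140, adjusted p = 0.660). In midbrain it was 14, 10 and 15 against 11, 34 and 32, which overlapped. The plot of these transcripts shows that the points of the genotypes are separated for each of the 15.

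**Figure D4:**
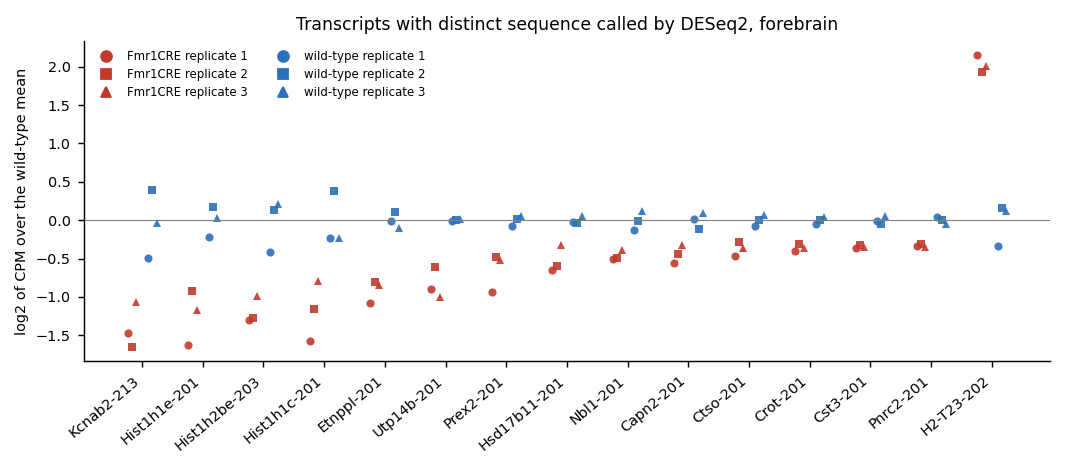
Transcripts with sequence of their own that DESeq2 called in forebrain. The vertical axis is log2 of the CPM over the wild-type mean, with 1 symbol per mouse (red Fmr1CRE, blue wild-type), and the line marks the wild-type mean. In 14 transcripts all Fmr1CRE points lie below the wild-type points, and H2-T23-202 lies above.

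By annotated transcript type, the shares of reads overlapped between the genotypes in all but 1 of 6 types. Retained-intron transcripts took 5.62%, 4.76% and 3.599% of the reads in Fmr1CRE and 3.88%, 3.59% and 3.93% in wild-type mice. Fmr1CRE replicates 1 and 2 were highest and replicate 3 lay within the wild-type range (exact permutation test, p = 0.3, adjusted p = 0.45 over 6 types). The difference of the means was 0.861 percentage points, and 1.46 without both replicate 3 libraries. Long non-coding RNAs were also highest in those 2 libraries, with 3.44%, 2.73% and 2.19% against 2.14%, 2.40% and 2.41% (exact permutation test, p = 0.3). Processed transcripts took 3.28%, 3.08% and 3.05% in Fmr1CRE and 3.02%, 3.03% and 3.00% in wild-type mice, without overlap by a narrow margin (exact permutation test, p = 0.1, adjusted p = 0.45). As a percentage of TPM they were at 4.06%, 4.48% and 4.80% against 5.33%, 4.49% and 4.34%, which overlapped with the lower mean in Fmr1CRE (exact permutation test, p = 0.6). Fmr1CRE replicates 1 and 2 also stood apart on the first principal component of all transcripts, which held 30% of the variance, at -207.6 and -89.3 against 42.6 to 114 for the other 4 libraries. None of the types passed the threshold, which 3 mice against 3 cannot reach in an exact test, and the plot of transcript types gives the ranges in the other regions.

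**Figure D5:**
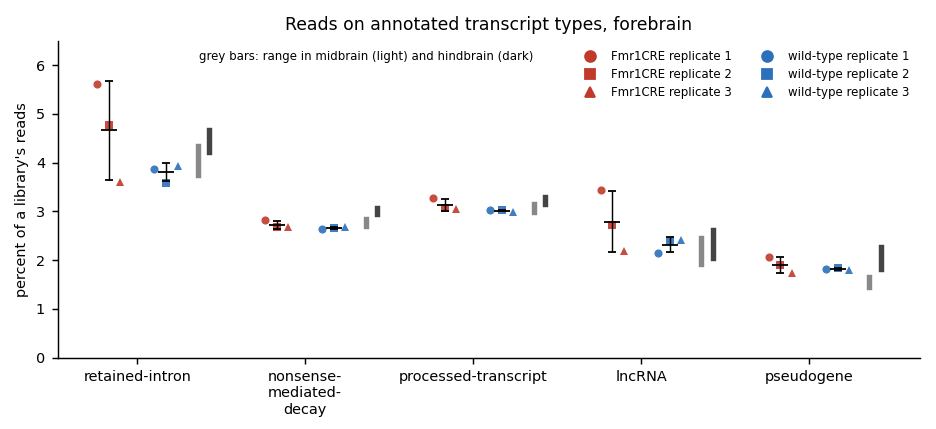
Percentage of each forebrain library's reads on 5 annotated transcript types. Symbols are mice (red Fmr1CRE, blue wild-type), bars the mean ± SD (n = 3), and grey bars the range over the 6 midbrain (light) and the 6 hindbrain libraries (dark). Fmr1CRE replicate 1 lies highest for each type, and Fmr1CRE replicate 3 lies at or near the wild-type points.

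Whether the genotype difference of a transcript in forebrain departed from the mean of midbrain and hindbrain was tested over all 18 libraries, with the regions of each mouse treated as independent. Of 62554 transcripts, edgeR called 13 (0.0208%), with 4190 below an unadjusted p of 0.05. Without both mice of replicate 3 there were 295, and 5 with the replicate number as a block. In each of the 13, 1 genotype of 1 region was at 0 in all 3 libraries, while the other 5 groups held reads. That region was forebrain in 8 of the 13, of which Slmap-213, Relt-206, Isy1-206 and Atp8b3-201 were at 0 in Fmr1CRE and Gm20498-206, Srpx2-201, Nudt13-207 and Bub3-205 in wild-type forebrain. For Fmr1 transcripts this test gave no call, with an unadjusted p of 0.250 for Fmr1-206 and 0.565 for Fmr1-202.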

How the data were processed

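Poly(A) RNA of dissected forebrain, midbrain and hindbrain of 3 Fmr1CRE and 3 wild-type mice gave 18 libraries of single-end 50-base reads. Per the labels and the paper's methods, the authors used the bcbio_nextgen pipeline, with Salmon 0.14.0 and DESeq2 1.30.1 and the build mm10 in the submitters' processing notes. The authors deposited estimated counts per transcript (not whole numbers, unnormalized), with TPM and the effective length of each transcript in bases. They also deposited a table of counts per gene, rounded to whole numbers, and log2 values that were not used here. Measured columns without a sample numbered 0. Summed per gene, 18 of the 18 sets of transcript estimates were closest to the gene column that shares their name, and 2 to the column of their sample record. Of 136288 transcripts 136100 matched GENCODE release M21 (GRCm38), which gave names, positions and sequences, and the other 188 held at most 0.126% of the reads of a forebrain library.

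Estimated counts were rounded and tested with edgeR 4.0.16 in R 4.3.3 (TMM, default filter, quasi-likelihood test, Benjamini-Hochberg adjustment, threshold 0.05), and shares with diffSpliceDGE and Simes p values for transcripts with a mean share of at least 5%. Alternatives were DESeq2 1.42.0, limma 3.58.1, other scalings and filters, a single fit of the 18 libraries, a block on the replicate number, and libraries left out. Restriction to transcripts with at least 20% unique 50-base stretches, reads summed per gene, and other scales and libraries left out for further transcript types, were added after seeing the data. CPM are TMM-scaled, and a value of 0 is read as up to 3 reads, which covers counting error only. Tests were checked on simulated counts drawn independently for each transcript. These held no division of shared reads among isoforms, so that the check does not cover the all-or-none values. The libraries, lists and tests were chosen with earlier results of these data known.

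The naming rule took all transcripts of Fmr1, Fxr1 and Fxr2, up to 10 higher and 10 lower transcripts, filled by unadjusted p where none passed, the 10 genes with the smallest p for a changed share, and in each list the 3 genes with the smallest p. Of the transcripts it took, 1 is not reported here. Replicates are separate mice, and a number shared by mice of both genotypes is only a name. Depth was 24154648 to 27927435 reads per library. The spread between mice and the division of reads among isoforms also limit the precision.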

Additional observations from a re-analysis of the deposited data

Results flagged for a closer look

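The genotype difference of 13 transcripts in forebrain departed from the mean of midbrain and hindbrain (edgeR, adjusted p under 0.05, with the regions of each mouse treated as independent). The fitted log2 differences depend on the small count added to a value of 0, since 1 genotype of 1 region was at 0 in each case, and are not estimates of size. For transcripts at 0 in Fmr1CRE forebrain they were -9.315 for Slmap-213, -7.38 for Relt-206, -8.358 for Isy1-206 and -6.041 for Atp8b3-201. For transcripts at 0 in wild-type forebrain they were 8.155 for Gm20498-206, 7.508 for Srpx2-201, 9.016 for Nudt13-207 and 7.276 for Bub3-205. For the other 5 the group at 0 was in another region. The values were -4.515 for Pcid2-204 and -4.965 for Gng7-205, at 0 in wild-type hindbrain, -4.224 for Psrc1-202, at 0 in wild-type midbrain, and 4.298 for Slc39a8-206 and 5.222 for Uxt-201, at 0 in Fmr1CRE midbrain. As an example, Slmap-213 received 0 reads in Fmr1CRE and 54, 62 and 57 in wild-type forebrain, and 57, 69 and 107 in Fmr1CRE and 91, 90 and 78 in wild-type midbrain. With 3 libraries per group, single outlying libraries were not looked for.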

How the results depend on the processing

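The count of 0 transcripts with an adjusted p under 0.05 became 8 in 1 fit of all 18 libraries and 221 with DESeq2, and the count of 0 genes in the gene table became 1 and 31. It was 0 under the other alternatives, libraries left out and the replicate block included. The 24 genes with changed shares became 15 with a mean of at least 10 counts, 12 with a minimum share of 10%, 83 with no minimum share, 10 in 1 fit of all 18 libraries, and 0 with limma. With distinct transcripts the count was 0, and none of the 24 genes was tested there. With single libraries left out they were 39 to 78, the highest without Fmr1CRE replicate 3, and 127 without both replicate 3 libraries. With the replicate number as a block they were 5, and the 13 transcripts that differed between regions were 5, or 295 without both mice of replicate 3. The numbers do not pair the mice, as deviations of same-numbered libraries correlated at 0.0328, -0.0524 and -0.0441. The causes of these moves were not tested.

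Of 116 named values 18 changed sign in at least 1 alternative. With single libraries left out, log2 fold changes ran from -0.04515 to 0.07919 for Fxr2-201, -0.1266 to 0.3403 for Fxr2-205, -0.0002959 to 1.273 for Fxr2-202, -0.4235 to 0.01266 for Fxr1-204, -0.1836 to 0.7673 for Fmr1-212, -0.2802 to 1.208 for Fmr1-213, -0.04147 to 0.08619 for Fmr1-206, -0.07987 to 0.106 for Cdk10-212, -0.06757 to 0.0506 for the gene Fmr1 and -1.588 to 0.9478 for the gene Zfp217. Shares on the log2 scale ran from -0.01941 to 0.01288 for Fxr2-201, -0.04132 to 0.2599 for Fxr1-201 and -0.04686 to 0.3801 for Sorbs2-204. Fxr2-201 was at -0.00666 with no filter, -0.01449 in the fit of 18 libraries and -0.05124 without both replicate 3 libraries. Cdk10-212 was at -0.00889 in the fit of 18 libraries, the share of Sorbs2-204 at -0.04711 with a minimum share of 10% and that of Pax6-201 at -0.5421 with limma. The gene Fmr1 was at 0.0243 with total counts alone and 0.0002236 with the replicate block. On summed reads the gene Fxr2 was at 0.05375 and Rpap1 at 0.05982. The difference in the share of nonsense-mediated-decay transcripts was -0.07603 and that of processed transcripts -0.2719 percentage points with TPM, the latter alternative chosen after seeing the data.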
